A study of Homo sapiens with 2 samples.

Results

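The mRNAs of 28 proteins of the small (40S) subunit of the cytosolic ribosome were followed between 2 RNA libraries from HEK293 cells, an established human embryonic kidney line at passage 15. They were chosen by name, as the rows of the deposited table whose symbol equals a listed 40S protein gene, without pseudogenes, and all 28 were among its 13075 genes. Both libraries came from cells transfected with FLAG-tagged TOP3B, a DNA and RNA topoisomerase, carrying the R338W substitution. The input library was made from the lysate with no antibody, and the RIP (RNA immunoprecipitation) library from the RNA recovered with the monoclonal anti-FLAG M2 antibody. Each group held 1 library, so every difference is one between 2 libraries, without a replicate check or a p-value, and cells without the tagged protein were not analysed here. The series set out to identify RNAs bound in TOP3B cleavage complexes.

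The small subunit binds the mRNA and reads its codons, while the large (60S) subunit joins the amino acids. Its proteins are made in about equal numbers and assemble on ribosomal RNA in the nucleolus. Their mRNAs are short, abundant and known for a 5′ terminal oligopyrimidine tract, a run of C and T bases that begins with C at the transcription start and through which LARP1 and the mTOR pathway control their translation.

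That tract is the sequence feature for which these mRNAs are best known, so the start sites of 10 members are shown first, 5 each from the low and the high end of the RIP to input ratios given below. Each line holds the 10 bases before and the 20 bases from the RefSeq start site (GRCh38.p14), and capitals mark the unbroken run of C and T from the start. The members with the lowest ratios and a RefSeq entry follow.
RPS13 (chr11:17077648-17077677, minus strand): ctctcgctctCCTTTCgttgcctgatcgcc
RPS29 (chr14:49598691-49598720, minus strand): agcgcgcagcTggcagcggtggttgtttct
RPS12 (chr6:132814559-132814588, plus strand): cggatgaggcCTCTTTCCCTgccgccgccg
RPS21 (chr20:62387093-62387122, plus strand): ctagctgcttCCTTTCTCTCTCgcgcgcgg
RPS23 (chr5:82278335-82278364, minus strand): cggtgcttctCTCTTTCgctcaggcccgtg
The members with the highest ratios follow.
RPS16 (chr19:39435930-39435959, minus strand): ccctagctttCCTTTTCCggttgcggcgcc
RPS15 (chr19:1438386-1438415, plus strand): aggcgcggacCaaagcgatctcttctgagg
RPS25 (chr11:119018324-119018353, minus strand): gcagcgcttcCTTTTTgtccgacatcttga
RPS24 (chr10:78033853-78033882, plus strand): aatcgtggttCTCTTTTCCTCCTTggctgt
RPS6 (chr9:19380217-19380246, minus strand): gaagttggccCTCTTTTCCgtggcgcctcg

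The tract was counted where C stood at the start and at least 5 bases in a row from there were C or T. It was read only on the strand with the sequence of the mRNA, because its place is fixed. RefSeq start entries were matched for 25 of the 28 members, and 19 of these (76.0%) held the tract. The share was 73.7% of 38 matched 60S protein genes, against 7.74% of the 8428 matched genes of the table that passed the floor used below, and 5.14% of all 27305 genes with an entry. The 6 matched members without it were RPS4X, RPS7, RPS15, RPS26, RPS28 and RPS29, whose RefSeq starts may differ from those used in these cells. Tract length did not order the members by their ratios, with Pearson's r of 0.14 and Spearman's rho of 0.11 over 25 members that share 2 libraries. RPS24 and RPS21, whose runs of 14 and 12 bases were long, lay near opposite ends.

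All 28 mRNAs were abundant in both libraries. Values were read as FPKM, fragments counted per kilobase of RNA and per library total, a level per length that can be compared between genes. Levels ran from 172 to 2532 FPKM in the RIP, with a median of 601, and from 230 to 2298 FPKM in the input, with a median of 713. Even the lowest member, RPS28, stood at 9.00 times the median coding gene of the RIP and 13.2 times that of the input. The highest and lowest members were 14.7-fold apart in the RIP and 10.0-fold in the input, although the proteins are needed in equal numbers.

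The order of the members was largely shared between the libraries. Levels in the RIP and input had a Pearson's r of 0.89 and a Spearman's rho of 0.86 on the log2 scale, a description over 28 genes. The 5 most abundant members in the RIP were RPS24, RPS27, RPS18, RPS19 and RPS6, and 4 of them were also among the 5 most abundant in the input. The exception was RPS6, which ranked 14 in the input. Summed over members, levels came to 22221 FPKM in the RIP against 25555 in the input, or 2.04% and 1.69% of all FPKM. Of protein-coding FPKM alone they made up 4.21% and 5.48%, so whether the members' share was higher or lower in the RIP depended on the total it was set against.

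**Figure D1:**
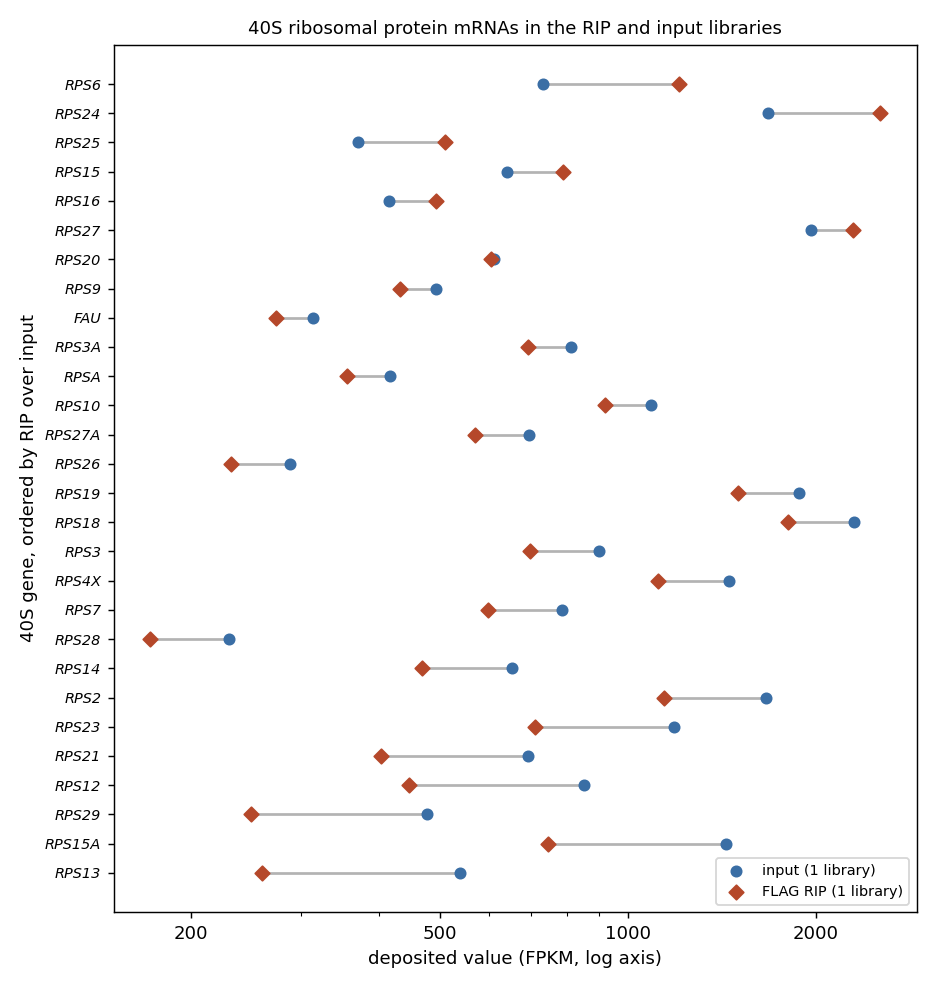
Deposited level (FPKM, log axis) of each of the 28 mRNAs in the input library (blue circles) and the RIP library (red diamonds), ordered by the ratio of RIP to input; each point is 1 library. The RIP point lies left of the input point for 22 genes, and right of it for RPS27, RPS16, RPS15, RPS25, RPS24 and RPS6.

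Most 40S mRNAs had lower values in the RIP than in the input, by less than 2-fold. Each ratio was computed as log2((RIP + 1)/(input + 1)), which adds 1 FPKM to both values. It was taken over the 11990 genes that reached a floor of 5 FPKM in either library, as all 28 members did in both. Of the 28 ratios, 22 were below 0 (78.6%), against 41.2% of all genes, and 6 were above 0, against 58.7%. The median ratio was -0.32, with quartiles of -0.50 and -0.15, where the median of all genes was 0.13. At the 2-fold limit 1 member was lower, against 2.5% of all genes, and 0 were higher, against 4.9%. At a 1.5-fold limit 6 members (21.4%) were lower, against 10.2% of all genes, and 2 (7.14%) were higher, against 19.9%. The remaining 20 members lay within 1.5-fold of the input.

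The direction of the members against the input depended on how the libraries are scaled. On the TPM scale, which gives both libraries the same sum, 20 members had ratios above 0 and 8 below, with a median of 0.15. The table summed to 1090243 FPKM for the RIP and 1512049 for the input, of which coding genes held 48.5% and 30.9%. On that scale the median of all genes was 0.56 and 15.5% of genes were below 0, against 28.6% of the members. Set against the median gene, the members lay lower under both. Below the ratio of the median gene lay 22 of 28 members (78.6%), against 50% of all genes by construction. The members' median lay 0.44 log2 under the median gene with values as deposited, and 0.40 under it on the TPM scale.

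**Figure D2:**
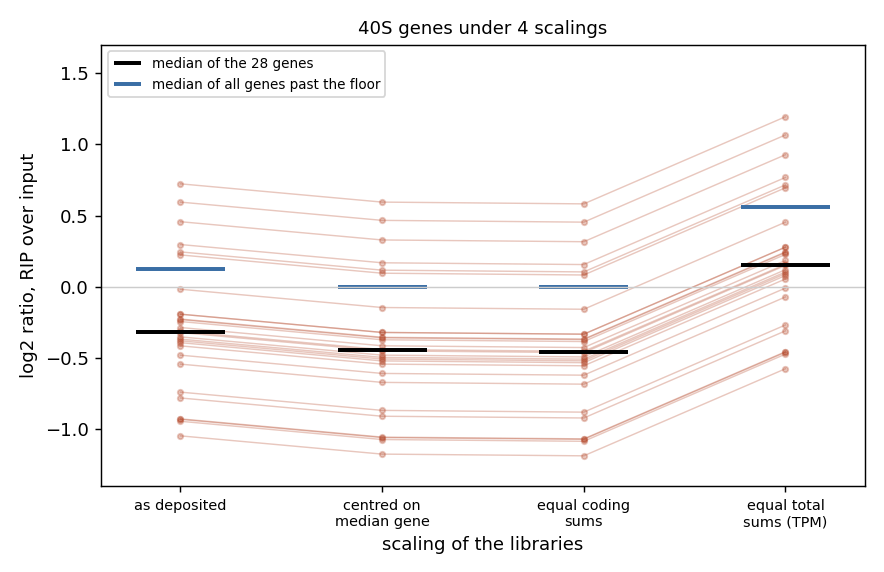
Log2 ratio of RIP over input of the 28 genes (red, 1 line a gene) under 4 scalings of the libraries, with the median of the 28 genes (black bars) and of all genes past the floor of 5 FPKM (blue bars). The black bar runs from -0.46 with equal coding sums to 0.15 on the TPM scale and lies under the blue bar in each.

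Proteins of the body and platform of the subunit held both ends of the ranking. RPS13 (ENSG00000110700.6, chromosome 11, 17074389 to 17077787, minus strand), a body protein that faces the large subunit, stood at 260 FPKM in the RIP against 538 in the input. Its level was 2.07-fold lower in the RIP, a log2 ratio of -1.05, and it alone passed the 2-fold limit. RPS15A (ENSG00000134419.15, chromosome 16, 18781295 to 18790383, minus strand) stood at 746 and 1435 FPKM, a ratio of -0.94, just inside the limit. RPS21, a small protein of the body, stood at 402 and 692 FPKM with a ratio of -0.78. RPS23, whose loop reaches into the decoding centre and serves fidelity, stood at 710 and 1186 FPKM with a ratio of -0.74. These 4 had the lowest ratios of the 16 body and platform genes. Relative to the median gene RPS15A also passed the 2-fold limit, at -1.07, and so did RPS29 and RPS12 of the head. By that measure 450 of the 11990 genes past the floor were at least 2-fold lower.

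RPS2, which lines the channel through which mRNA enters, stood at 1144 FPKM in the RIP against 1666 in the input, a ratio of -0.54. RPS14, the platform protein whose loss of 1 gene copy is known from the 5q- syndrome, stood at 468 and 653 FPKM, a ratio of -0.48. RPS7, a body protein, stood at 598 and 785 FPKM, a ratio of -0.39. These values were lower in the RIP by 1.31-fold to 1.46-fold. RPS4X, encoded on the X chromosome, stood at 1119 and 1454 FPKM with a ratio of -0.38. RPS26, which contacts mRNA upstream of the start codon, stood at 232 and 288 FPKM with a ratio of -0.31. RPSA, also known as the laminin receptor, stood at 355 and 417 FPKM with a ratio of -0.23. RPS4X and RPS26 differed in level by several fold and yet had neighbouring ratios. RPS3A, a platform protein, stood at 693 and 811 FPKM, also a ratio of -0.23. RPS9, which lies at the mRNA entry side, stood at 432 and 493 FPKM, a ratio of -0.19. Both lay within 1.2-fold of the input.

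RPS27, RPS24 and RPS6 were the body and platform genes with higher values in the RIP. RPS6 (ENSG00000137154.12, chromosome 9, 19375715 to 19380254, minus strand), the substrate of S6 kinase downstream of mTOR, stood at 1207 FPKM in the RIP against 731 in the input. Its level was 1.65-fold higher in the RIP, a log2 ratio of 0.72 and the highest of the 28. RPS24 (ENSG00000138326.18, chromosome 10, 78033732 to 78056813, plus strand), whose mRNA is alternatively spliced at its 3′ end, stood at 2532 and 1676 FPKM, a ratio of 0.59. RPS6 and RPS24 alone passed the 1.5-fold limit upwards. On the TPM scale they were at least 2-fold higher, at 1.19 and 1.07, as were 2428 of the 11990 genes past the floor. RPS27, a zinc-finger protein, stood at 2295 and 1965 FPKM, a ratio of 0.22. Over the 16 genes the median was -0.35, with 13 ratios below 0.

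Among the 12 genes of the head the median was -0.30, with 9 ratios below 0. RPS29, a small zinc-binding protein, stood at 250 FPKM in the RIP against 477 in the input, a ratio of -0.93. RPS12 stood at 447 and 850 FPKM, also a ratio of -0.93. These 2 lay apart from the rest of the head, where the next ratio was -0.41, that of RPS28. RPS28, at the mRNA exit, stood at 172 and 230 FPKM. RPS3, which guards the mRNA entry channel, stood at 698 and 901 FPKM with a ratio of -0.37. RPS18, which takes part in contacts with the large subunit, stood at 1801 and 2298 FPKM with a ratio of -0.35. RPS19, the gene most often mutated in Diamond-Blackfan anaemia, stood at 1503 and 1877 FPKM with a ratio of -0.32. The ratios of these 3 lay close together although RPS18 and RPS19 were more abundant than RPS3. RPS10 and RPS20 are ubiquitinated by ZNF598 when ribosomes collide. RPS10 stood at 921 and 1090 FPKM, a ratio of -0.24. RPS20 stood at 604 and 611 FPKM, a ratio of -0.02, and was the member nearest to the input.

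The head genes RPS16, RPS15 and RPS25 had higher values in the RIP. RPS16, whose tail touches the tRNA in the peptidyl site, stood at 493 FPKM in the RIP against 415 in the input, a ratio of 0.25. RPS15, whose tail lies near the decoding centre, stood at 786 and 640 FPKM, a ratio of 0.30. RPS25, needed for initiation at several viral internal ribosome entry sites, stood at 509 and 371 FPKM, a ratio of 0.46. Each was under 1.5-fold. Head and body genes thus overlapped over most of their range, and their medians lay 0.04 log2 apart.

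The fused proteins lay close to each other. RPS27A, made as a fusion with ubiquitin, stood at 570 FPKM in the RIP against 695 in the input, a ratio of -0.29. FAU, which encodes a ubiquitin-like domain joined to the 40S protein eS30, stood at 274 and 313 FPKM, a ratio of -0.19. Both were thus lower in the RIP, by less than 1.3-fold. The 10 members known as Diamond-Blackfan anaemia genes had a median of -0.32, the same as all 28, with 8 ratios below 0.

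Counting error was small beside the spread of the ratios. For RPS20 the standard error from counting, 0.0271, was larger than the size of its ratio, -0.0167, so its sign is uncertain. Depth was estimated from the values as 24622029 RIP fragments and 15168813 input fragments. Fragments per member were estimated from these depths and the median length of its annotated transcripts. That length was under the coding length for RPS4X (610 against 789 bases), RPS3A (680 against 792) and RPSA (874 against 885). On this estimate no member rested on fewer than 2497 fragments in the RIP or 1776 in the input. The standard error of a log2 ratio from counting alone was at most 0.0447, against a standard deviation of 0.46 between the 28 ratios. It leaves out the error of assigning fragments that match several genes. It also leaves out the error between experiments, which 1 library a group cannot show.

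Short coding genes in general had lower ratios, and the members are short. Their coding lengths ran from 168 bases (RPS29) to 885 (RPSA), with a median of 437. Other coding genes, ribosomal proteins left out, were split into 10 equal classes by coding length, a description added after seeing the data. From the shortest to the longest class their median ratio went from -0.34 to 0.56, higher in each class than in the one before. The shortest class, of 111 to 537 bases, held 1040 genes with a median of -0.34, and the 20 members of that length had -0.32, with 9 of them under the class median. Of the 4 members of 540 to 768 bases, 3 lay under that class's median of -0.17, the exception being RPS6. The 4 of 768 to 993 bases, RPS2, RPS3A, RPS4X and RPSA, all lay under the median of -0.03. Of the 2597 other coding genes of up to 885 bases, 78.0% lay below the ratio of the median gene, a share near the 78.6% of the members. Among the 28 members the ratio showed little relation to coding length (Pearson's r of 0.13, Spearman's rho of 0.13). The part of length in the members' ratios was not tested.

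**Figure D3:**
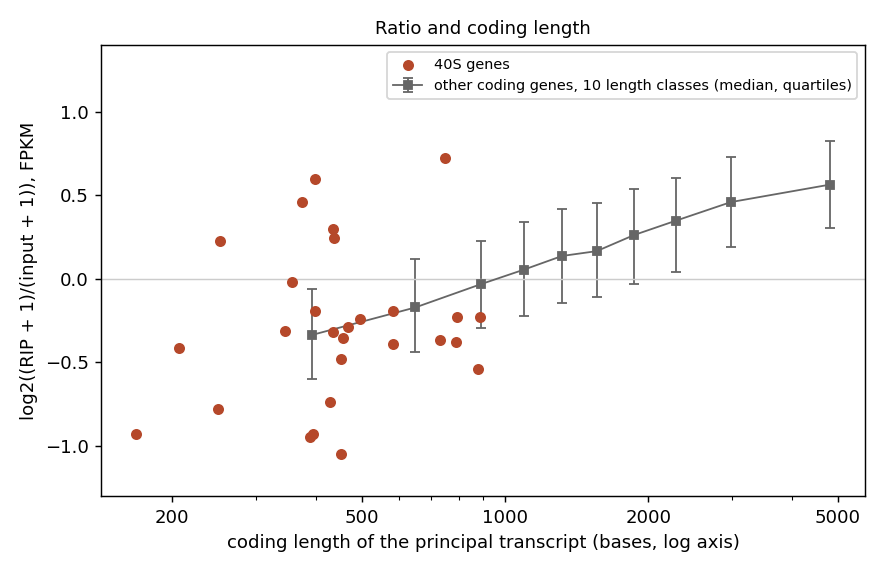
Log2 ratio of RIP over input against the coding length of the principal transcript (bases, log axis) for the 28 40S genes (red) and for other coding genes in 10 length classes (grey squares: median, bars: quartiles). The grey medians run from -0.34 to 0.56, and the 40S genes sit at the short end, between -1.05 and 0.72.

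The 60S proteins, the partners of the members in the ribosome, had a median ratio of -0.16 over 47 genes, with 27 below 0 and 2 at least 2-fold higher. Their lowest ratios were those of RPL34, at 304 FPKM in the RIP against 526 in the input, and RPL21, at 258 and 432 FPKM. The highest belonged to RPL19, at 3822 and 1618 FPKM, and RPL3, at 1059 and 512 FPKM. The 60S ratios ran from -0.79 to 1.24, a range that holds 24 of the 28 members, and no difference between the subunits was tested. With 5 further 40S genes of the table outside the list, GNB2L1 (RACK1, a head scaffold, at 1221 and 1228 FPKM) among them, the 40S median was -0.29, with 25 of 33 ratios below 0.

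The median ratio of other mRNAs known for a 5′ oligopyrimidine tract lay between that of the members and that of all genes, and single genes went both ways. Of 17 measured, 8 had ratios above 0 and 9 below, none was 2-fold apart, and the median was -0.0049. EIF3E and TPT1 were lowest, at 87.6 and 589 FPKM in the RIP and 152 and 836 in the input. EEF1D, at 356 and 246 FPKM, and EIF4B, at 163 and 117, were highest. The mRNAs of 14 binders and controllers of such transcripts had a median of 0.36, with 9 above 0. LARP1, which binds the tract, stood at 102 FPKM in the RIP against 66.9 in the input, and MTOR at 52.6 and 35.5. TIAL1 (116 and 62.7 FPKM) and LARP1B (39.9 and 25.9) were highest in that list, and EIF4EBP2 (9.06 and 17.1) and CNBP (91.1 and 127) lowest.

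The mRNAs of factors that assemble the small subunit had a higher median ratio of RIP to input than the members, at far lower levels. Of 21 factors, 16 had ratios above 0 and 5 below, none reached 2-fold on this scale, and the median was 0.44. RRP12, at 45.4 FPKM in the RIP against 22.3 in the input, and the kinase RIOK3, at 56.1 and 30.6, were highest. The methyltransferases DIMT1, at 13.4 and 22.6 FPKM, and EMG1, at 12.6 and 15.97, were lowest. Their median levels were 29.6 FPKM in the RIP against 22.6 in the input. Their mRNAs were compared with the members as a description only, without matching for coding length.

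Abundance alone gave another picture than length. Other coding genes at least as abundant as the lowest member had a median of 0.18 over 215 genes, with 86 ratios below 0. The 101 of them with a coding length of up to 885 bases had a median of -0.11, with 61 below 0. The members, with 22 of 28 below 0, lay under both sets, which were formed after seeing the data and were not tested against the members.

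**Figure D4:**
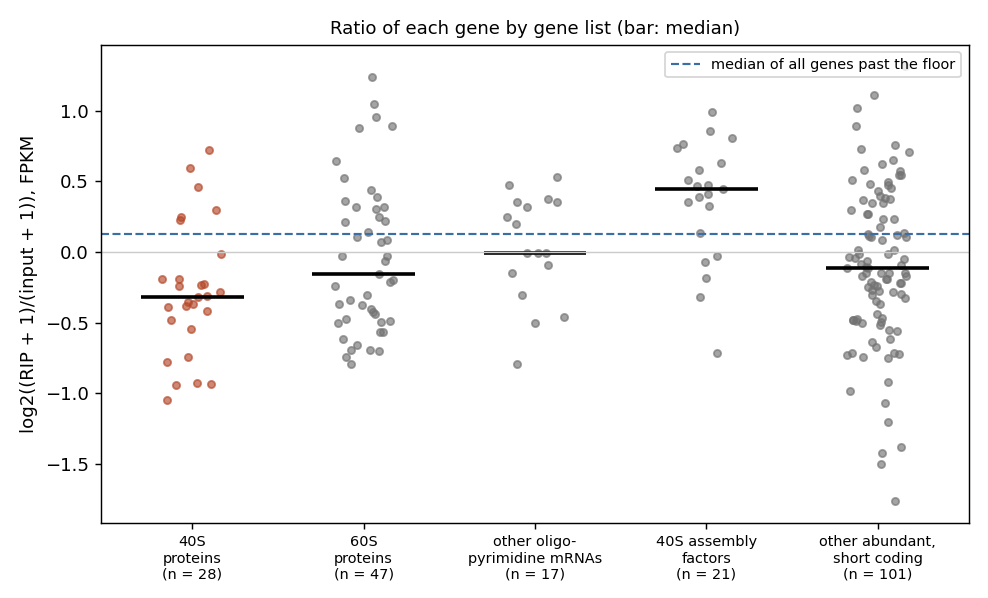
Log2 ratio of RIP over input for each gene (points) of 5 lists, with the median of each list (black bars) and of all genes past the floor of 5 FPKM (dashed line, 0.13). The 40S proteins have the lowest median of the 5 lists, -0.32, and the 40S assembly factors the highest, 0.44.

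The annotated spans of 7 members hold 14 snoRNA genes on the same strand, and 7 of the 7 hosts had ratios below 0, from -1.05 for RPS13 to -0.02 for RPS20. The 21 members without a snoRNA had a median of -0.31, with 15 below 0, and the 7 hosts one of -0.37. Values past the floor were found for 5 of the 14 snoRNAs, all lower in the RIP. SNORD15B, in RPS3, stood at 107 FPKM in the RIP against 226 in the input, and SNORD15A, in the same gene, at 2.74 and 7.01. SNORA10, in RPS2, stood at 79.5 and 125 FPKM, and SNORA64, in the same gene, was listed at 0 in the RIP and at 58.9 in the input. SNORA33, in RPS12, stood at 6.26 and 41.0 FPKM. The ratios of all 5 snoRNAs were lower than those of their hosts. These snoRNAs are 130 to 148 bases long, shorter than the estimated mean fragment of 167 bases in the RIP and 165 in the input. Their FPKM may thus rest on few fragments, and their ratios are uncertain.

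Members share sequence with processed pseudogenes, to which the authors' counting could assign fragments. The annotation names 394 pseudogenes after the 28 members, from 1 each for RPS9, RPS13 and RPS25 to 74 for RPSA. The table held 11 of them, and 10 stood at under 10% of the parent's level in the input. RPS2P5 was the exception, at 103 FPKM in the RIP against 179 in the input, or 10.7% of RPS2, with a ratio of -0.80. RPS15AP6, at 4.84 and 9.29 FPKM, had a ratio of -0.82, and RPS15A one of -0.94. RPS7P3, at 7.33 and 2.22 FPKM, and RPS3AP3, at 7.06 and 4.01, were higher in the RIP, where their parents were lower. Both passed the floor of 5 FPKM in the RIP alone, and RPS15AP6 in the input alone. Their directions thus follow in part from the floor and are not a result about the parents. The number of pseudogenes showed little relation to the ratio over the 28 members (Pearson's r of -0.11, Spearman's rho of -0.16).

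Some members also overlap other genes of the table, and although the library kit keeps the strand, the strand setting of the counting is not stated in any source at hand. The readthrough gene RPS10-NUDT3, on the strand of RPS10, stood at 29.9 FPKM in the RIP against 14.3 in the input, against 921 and 1090 for RPS10. RN7SL1, an RNA of the particle that directs proteins to the endoplasmic reticulum, lies within the annotated span of RPS29 on the opposite strand, at 101210 and 181363 FPKM. Without that setting, fragments of the 2 genes could not be told apart where they overlap. RPS27L, a paralog of RPS27 outside the list, stood at 58.5 and 112 FPKM, a ratio of -0.92, whereas RPS27 had 0.22. The paralog and the member thus lay on opposite sides of 0.

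Facts of the libraries that bear on all members were few. The transcript of the bait, TOP3B, was far above any member, at 30666 FPKM in the RIP against 15062 in the input, and the values do not part the transfected from the chromosomal copy. Of 9 markers of HEK293 cells 8 were measured, among them VIM at 679 and 544 FPKM and NEFL at 41.5 and 27.3. Of 20 markers of kidney tubule, blood, liver and fibroblasts 2 were in the table, LRP2 at 5.49 and 1.96 FPKM and COL1A1 at 7.45 and 2.19, both near the floor and past it in the RIP alone.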

How the data were processed

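For each of 2 libraries the deposited table gives 1 value for 13075 genes. The authors computed these values before deposit with STAR 2.6.1 and RSEM 1.2.31 among their tools (also cutadapt 1.18 and Trimmomatic 0.3, build hg38), per the submitters' processing notes, and the unit was taken here as FPKM. No unit is named in the header; the values carry decimals, and the columns sum to 1090243 (RIP) and 1512049 (input). Order, settings, strand and annotation of those steps are unknown here. FPKM depends on the library's total, so abundant RNAs lower all other genes of a library.

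Genes with at least 5 FPKM in 1 library (11990) were compared as log2((RIP + 1)/(input + 1)), with no test. Depth was the value at which FPKM of low genes with 1 transcript gave whole fragments (within 0.15 for 72.1% of 122 RIP genes and 66.9% of 251 input genes). The estimate was checked on simulated data, where it gave 20000185 fragments for a simulated depth of 20000000, from 181 genes. The simulation used the gene lengths and the fixed fragment length that the search assumes, so it could not test errors in either. Coding length was that of the principal transcript in GENCODE release 29 (GRCh38), matched for 12983 genes. Start sites came from RefSeq (GRCh38.p14). All members were named, and for other lists the 2 highest and 2 lowest ratios; LARP1, MTOR, VIM and NEFL were named after their values were seen. Members and lists were chosen with earlier results of these data known. Some 40S genes outside the list are not reported here by name. Alternatives were other pseudocounts, floors, fold limits and scalings. Python 3.11.15, numpy 2.4.6, scipy 1.17.1, pandas 2.3.3 and matplotlib 3.10.9 were used.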

Additional observations from a re-analysis of the deposited data

How the results depend on the processing

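No paired analysis was possible because the RIP and the input have 1 library each, so no replicate could be left out. TMM and DESeq2 scalings were planned for counts only. Another pseudocount or floor left the 22 ratios below 0, 6 above 0, 1 member 2-fold lower and 0 higher as they were. Centring on the median gene gave 4 members at least 2-fold lower, against 450 of all 11990 genes, and a median of -0.44. Equal sums over coding genes gave 4 members, against 453 of all genes, and a median of -0.46. The TPM scale gave 2 members at least 2-fold higher and 0 lower, against 2428 and 127 of all genes. On it 20 ratios were above 0 and 8 below, with a median of 0.15. That scale shifts all ratios by nearly the same amount. The 1.5-fold limit gave 2 higher and 6 lower, against 2386 and 1222 of all genes. The 4-fold limit gave 0 lower, against 84 of all genes. With the other 40S genes of the table, added after seeing the data, 1 of 33 was at least 2-fold higher, against 588 of all genes. No member past 2-fold changed sign, but none could, because each scaling moved the ratios by less than 2-fold. Nearer to 0 signs did change, as members below 0 went from 22 to 8 on the TPM scale. Depth does not limit these abundant mRNAs, whereas the missing replicates do.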
